A study of Mus musculus with 16 samples.

Results

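Ribosomes are assembled by a large set of factors, most of them nucleolar, and 40 mouse genes for such factors were followed through cultured hair follicle stem cells (HFSCs) and progenitors. The genes were listed by symbol, by their role in rRNA transcription, processing and subunit assembly. All 40 were found among the 32989 identifiers of the count table, and all 40 were among the 19049 genes tested. Epidermal cells of C57BL/6J mice in telogen, the resting phase of the hair cycle, were grown for 2 weeks as HFSC organoids in a 3-dimensional culture. The cultures were left untreated or received N1-acetylspermidine (N1-AcSpd), a polyamine carrying an acetyl group, over 72 h, and integrin α6+ cells were then sorted into CD34- progenitors and CD34+ HFSCs. Each of 4 mice gave 1 library to each of the 4 groups, namely untreated CD34-, N1-AcSpd CD34-, untreated CD34+ and N1-AcSpd CD34+ cells, which makes 16 libraries. The untreated libraries are labelled WT (wild type) in their titles, which was read here as untreated, and the treated ones N1AcSpd. All groups shared strain and culture, and the sorted cells had grown together in 1 organoid system, so they stand for cultured cells and not for cells taken directly from skin.

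In the nucleolus, RNA polymerase I transcribes one long precursor that is cut and trimmed into most of the RNAs of the ribosome. Small nucleolar RNAs (snoRNAs) guide chemical modification of this precursor, box C/D snoRNAs directing methylation by fibrillarin and box H/ACA snoRNAs directing pseudouridylation by dyskerin, while assembly factors build the small (40S) and large (60S) subunits and leave before export. Ribosome production rises with cell growth and is a known target of MYC, which binds with MAX to the E-box letters CACGTG.

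By role, 4 members belong to RNA polymerase I and its factors, 5 are nucleolar chaperones or GTPases, 3 form box C/D and 4 form box H/ACA snoRNA particles, 12 act in 40S maturation and 12 in 60S maturation. Expression was read from tags at the 3′ end of transcripts, counted as unique molecular identifiers (UMIs) that mark single molecules, and levels are given as counts scaled to a common total with TMM factors (CPM). No member had fewer than 68 UMIs in any library, and the coefficient of variation within a group had a median of 6.2% over members and groups. Values per library are listed in the order of mice 1 to 4, and a gene was called where the Benjamini-Hochberg adjusted p of edgeR's quasi-likelihood test over all 19049 genes was under 0.05.

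Depth ran from 15480075 to 29074855 UMIs and was on average higher in CD34- than in CD34+ libraries. The sort label held in every library, since Cd34 lay between 2.88 and 3.65 CPM in CD34- and between 43.4 and 64.1 CPM in CD34+ libraries. Of the 10 HFSC markers, 9 were tested and 8 were called higher in CD34+ cells in both conditions. Differentiation markers of the epidermis summed to 1184 ± 173 CPM in untreated CD34- and 311 ± 11.99 CPM in untreated CD34+ cells, and to 1358 ± 154 and 368 ± 40.1 CPM with N1-AcSpd (mean ± SD, n = 4). Cell cycle genes summed to 238 ± 12.7 and 326 ± 28.2 CPM untreated and to 236 ± 20.6 and 369 ± 28.3 CPM with N1-AcSpd, in CD34- and CD34+ cells. In untreated HFSCs 7 of 7 differentiation markers were called lower and 7 of 7 cell cycle genes higher. Summed fibroblast and immune markers stayed at or below 2.09 CPM in all 16 libraries, and of the melanocyte markers Dct, Tyr, Tyrp1 and Mlana each stayed below 1 CPM while Mitf and Pmel did not. The part of differentiation and of cycling in the values of the ribosome genes was not tested, and in bulk samples fewer cells of a type and less RNA per cell cannot be told apart.

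Several members carry snoRNA genes inside their own transcription units, so the same locus gives an assembly factor and a guide RNA. The 3 sequences shown first are box C/D snoRNAs that lie in introns of all annotated host transcripts, and the next 2 are those called in a comparison of cell types, which also overlap an annotated exon of a host transcript. They were read from GENCODE M21 on GRCm38, in DNA letters and 5′ to 3′, and capitals mark TGATGA within the first 20 bases (the core of box C) and CTGA within the last 20 (box D), where these letters were found.
Snord82 (host Ncl, chr1:86356261-86356330, minus strand): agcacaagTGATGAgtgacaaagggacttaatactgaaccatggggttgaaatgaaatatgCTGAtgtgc
Snord110 (host Nop56, chr2:130275506-130275573, plus strand): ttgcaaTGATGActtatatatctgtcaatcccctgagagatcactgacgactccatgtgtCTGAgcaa
Snord11 (host Nop58, chr1:59704790-59704873, plus strand): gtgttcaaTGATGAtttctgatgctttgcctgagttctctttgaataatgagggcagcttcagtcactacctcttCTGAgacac
Gm23650 (host Nop56, chr2:130277697-130277766, plus strand): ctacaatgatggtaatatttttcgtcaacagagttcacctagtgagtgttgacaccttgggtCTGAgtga
Snord57 (host Nop56, chr2:130278016-130278087, plus strand): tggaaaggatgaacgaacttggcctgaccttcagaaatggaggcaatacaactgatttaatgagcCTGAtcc

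Promoter windows were searched because many members were lower in the same cells. RefSeq windows on GRCm38.p6 from 250 bases before to 50 after the start were at hand for 35 of the 40 members, and 6 of these 35 (17.1%) held the E-box letters CACGTG, which read the same on both strands. The same letters stood in 21 of 111 other ribosome biogenesis genes with a window and in 11.3% of tested genes with a window. In these shares a gene counted once if any of its windows held the letters. Counted by window, the share was 7.15% of all 32851 windows, which is not the same unit. In Ltv1, Pes1, Pno1 and Tsr1 the letters lay after the start, and in Imp4 and Nop2 before it, with the first base at 121 and 60 bases upstream. These 2 upstream stretches are shown with the E-box in capitals.
Imp4 (chr1:34439678-34439743, plus strand): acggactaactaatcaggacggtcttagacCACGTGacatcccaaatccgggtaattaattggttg
Nop2 (chr6:125131793-125131858, plus strand): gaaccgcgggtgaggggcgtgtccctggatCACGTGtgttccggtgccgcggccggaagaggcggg
A match of letters is a description and not a binding site.

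The first comparison asked how HFSCs differ from progenitors in their ribosome production genes. In untreated cultures 20 of the 40 members were called lower in CD34+ HFSCs and 0 higher by edgeR, where 16.1% of all tested genes were called lower and 16.1% higher. At an unadjusted p under 0.05, 27 members were lower and 1 was higher, and DESeq2 called 23 lower and 0 higher. Every share of all tested genes given here and below is from the main edgeR fit, not from DESeq2 or another setting. Scaling by library totals, which moved the median of all genes to 0.14, left 9 members called lower and 1 higher. The members are well expressed, and among the 9144 tested genes whose mean count reached that of the lowest member (123.9 UMIs) 25.2% were called lower. That background is not matched to the members' levels. The lowest member lay at percentile 52.02 of tested genes and the median member at 84.1. The members' median log2 fold change was -0.18, against 0.022 over all tested genes. It was below 0 in each of the 4 mice (SD over mice 0.059). In 21 members every CD34+ library lay below every CD34- library, against 16.2% of all tested genes. Only 13 members were called without the untreated CD34+ library of mouse 1, without mouse 1 or without mouse 4.

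The same comparison in N1-AcSpd-treated cells, with 8 other libraries from the same mice, had 25 members called lower and 0 higher, against 16.8% lower and 16.5% higher over all tested genes. Among tested genes at or above the lowest member's count, 25.5% were called lower. The median log2 fold change was -0.23 (all tested genes -0.0068), and 27 members had groups that did not overlap, with CD34+ below, against 18.3% of tested genes. Without mouse 4, 14 members were called. In both conditions 18 members were called lower, while 2 passed only in untreated and 7 only in treated cells. Of the 19049 tested genes, 2534 were called lower in both, 530 only in untreated and 666 only in treated cells. With library totals, which moved the median of all genes to 0.11, 14 members were called lower and 3 higher in treated cells. With all libraries thinned to the smallest total, 18 and 24 members were called in untreated and treated cells. The interaction, which tests whether the cell type difference changed with treatment, gave 0 calls by edgeR among the members and in 0.0% of tested genes, 0 members at an unadjusted p under 0.05, and 0 calls by DESeq2.

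**Figure D1:**
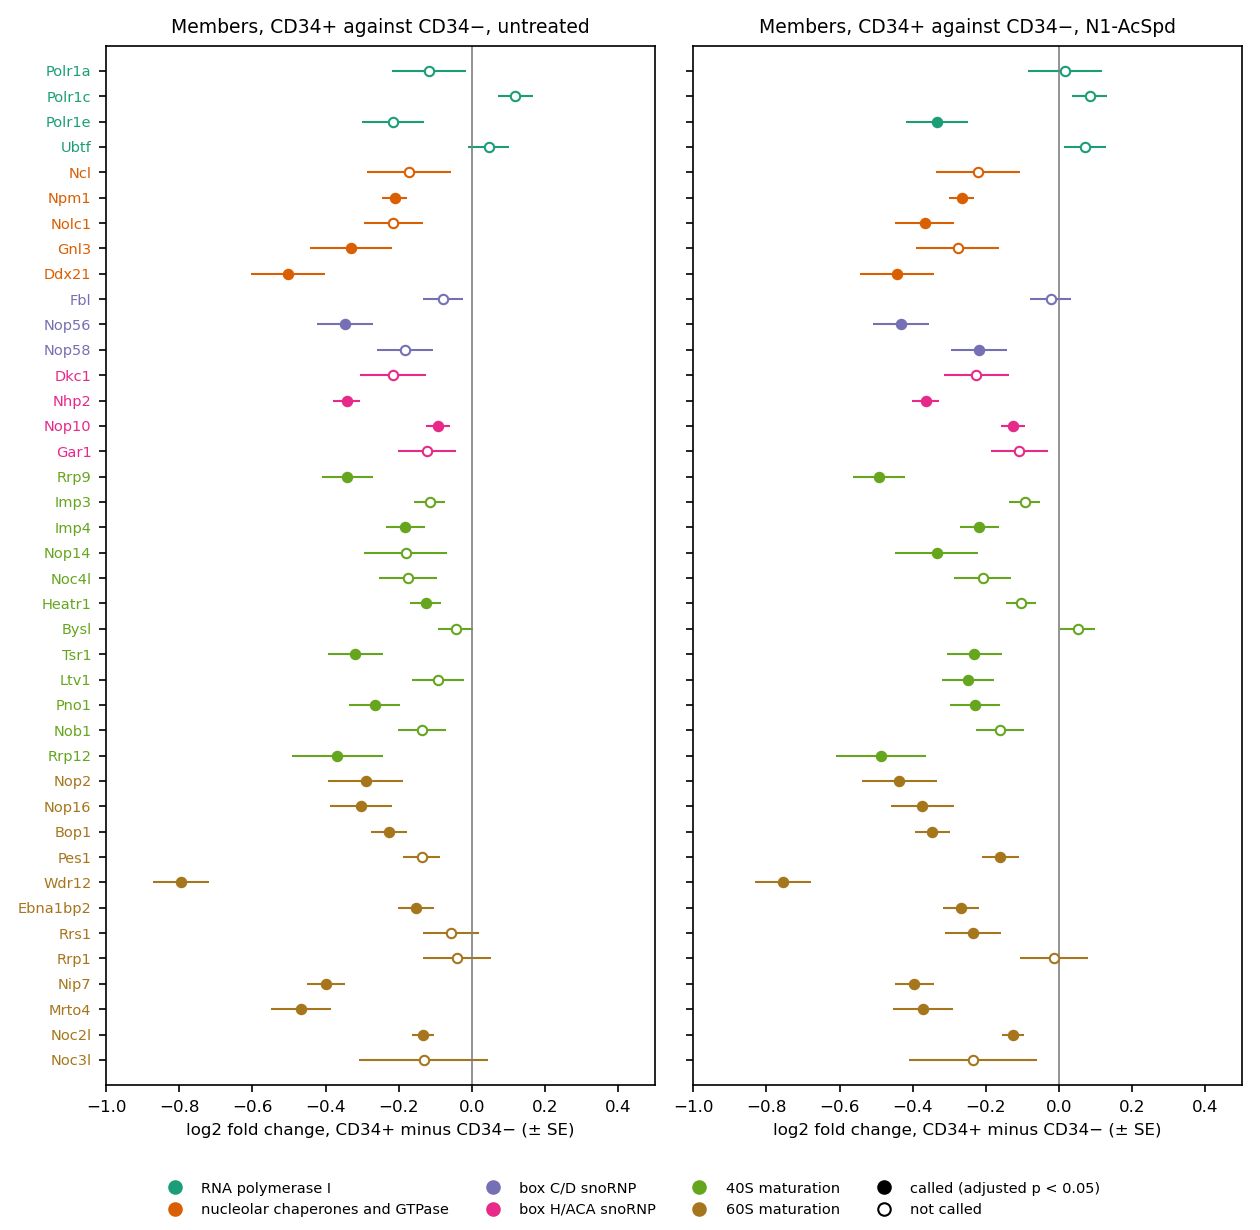
Log2 fold change (± SE) of each of the 40 members between CD34+ and CD34- cells, untreated on the left and N1-AcSpd on the right, ordered and coloured by role, with filled points for called members. In untreated cells 38 of 40 points lie below 0 and in N1-AcSpd cells 36 of 40, and Wdr12 lies farthest left in both panels.

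Among RNA polymerase I genes, 0 of 4 were called in untreated and 1 of 4 in N1-AcSpd cells. Of all tested genes 16.1% and 16.8% were called lower, and 25.2% and 25.5% of those at or above the lowest member's count. Polr1a, the largest subunit of the enzyme, stood at 7.61, 9.52, 8.36 and 8.08 CPM in untreated CD34- and 7.17, 7.08, 9.16 and 7.50 CPM in untreated CD34+ libraries. These ranges overlapped, and the difference was -0.12 ± 0.10 on the log2 scale (± SE here and throughout, edgeR adjusted p = 0.437). Ubtf, which bends rDNA and recruits the polymerase, had 22.2, 22.6, 20.1 and 21.6 CPM in untreated CD34- and 22.9, 21.4, 22.8 and 22.2 CPM in untreated CD34+ libraries, a difference of 0.046 ± 0.056 (edgeR adjusted p = 0.615). Polr1c, a subunit shared with RNA polymerase III, was not called in either condition, although in N1-AcSpd cells all its CD34+ libraries lay above the CD34- ones (45.97 ± 1.22 against 43.4 ± 1.61 CPM). Polr1e, a subunit that acts in initiation, was lower in N1-AcSpd HFSCs, at 10.1 ± 0.224 against 12.7 ± 1.65 CPM (log2 fold change -0.33 ± 0.085, edgeR adjusted p = 0.00721).

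Of the 5 nucleolar chaperones and GTPases, 3 were called lower in HFSCs in each condition, against 16.1% and 16.8% of all tested genes. All 5 lay below 0, as did 47.2% and 50.8% of all tested genes. Npm1, nucleophosmin, the abundant histone and ribosome chaperone of the outer nucleolus, had 475, 491, 468 and 444 CPM in untreated CD34- and 404, 413, 418 and 387 CPM in untreated CD34+ libraries. The groups did not overlap, and the log2 fold change was -0.21 ± 0.035 (edgeR adjusted p = 0.000395). In N1-AcSpd cells it read 481, 513, 522 and 508 CPM in CD34- and 431, 421, 421 and 410.2 CPM in CD34+ libraries, again without overlap (log2 fold change -0.27 ± 0.035, edgeR adjusted p = 5.03e-05).

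Ddx21, an RNA helicase that links RNA polymerase I transcription with processing, had 41.8, 46.7, 42.7 and 39.3 CPM in untreated CD34- and 30.3, 31, 32.6 and 26.5 CPM in untreated CD34+ libraries. With treatment the values were 44.1, 44.7, 47 and 40.98 CPM in CD34- and 33.6, 38.5, 31.9 and 25.96 CPM in CD34+ libraries. The HFSC libraries lay below all progenitor libraries in both conditions, with log2 fold changes of -0.50 ± 0.10 and -0.44 ± 0.10 (edgeR adjusted p = 0.00171 and 0.00353). Gnl3, nucleostemin, a nucleolar GTPase named for its expression in stem cells, was not higher in the HFSCs. It read 58.4, 53.4, 53.6 and 49.7 CPM in untreated CD34- and 44.4, 42.9, 46.8 and 36.9 CPM in untreated CD34+ libraries, every HFSC library being lower (log2 fold change -0.33 ± 0.11, edgeR adjusted p = 0.0382), and it was no longer called in 9 of 20 runs without 1 library or 1 mouse. Its opposite-strand neighbour Pbrm1 had 212% as many UMIs. In treated cells the 4 HFSC libraries had 48.8, 46.7, 48.4 and 32.4 CPM against 55.3, 54.6, 54.8 and 49.02 CPM in progenitors, and the adjusted p was 0.0767 (edgeR).

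Ncl, nucleolin, which binds the rRNA precursor, was not called in either condition. Its untreated CD34- libraries had 300.1, 319, 269.6 and 262 CPM and its untreated CD34+ libraries 238, 253, 312 and 217 CPM, the third mouse going the other way (log2 fold change -0.17 ± 0.11, edgeR adjusted p = 0.292). Nolc1, a phosphoprotein chaperone of snoRNA particles, was called lower in treated HFSCs alone, with log2 fold changes of -0.22 ± 0.08 untreated and -0.37 ± 0.08 treated (edgeR adjusted p = 0.0555 and 0.00276), a difference that the interaction did not pass (unadjusted p = 0.204 in edgeR).

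In the box C/D particle, Fbl, the methyltransferase fibrillarin, was called in neither condition. Its levels were 80.1, 86.2, 76.01 and 75.1 CPM in untreated CD34- and 73.4, 80.9, 76.4 and 69.8 CPM in untreated CD34+ libraries, and the log2 fold change was -0.079 ± 0.055 (edgeR adjusted p = 0.321) with overlapping groups. The 3′ end of Fbl is 100% identical over 399 bases to a stretch of Tulp4, which had 93135 UMIs against 26933 for Fbl, and how such tags were assigned is not given in the sources used here. The core proteins that sit beside it in the particle lay lower. Nop56 stood at 103, 108, 98.1 and 107 CPM in untreated progenitors and 74.9, 85.9, 88.1 and 78.2 CPM in untreated HFSCs, without overlap (log2 fold change -0.35 ± 0.076, edgeR adjusted p = 0.00319), and in treated cells the change was -0.43 ± 0.076 (edgeR adjusted p = 0.000556). Idh3b, on the strand opposite Nop56, had 31.8% as many UMIs (Pearson r 0.893 over 16 libraries). It was called in neither condition, with log2 fold changes of -0.046 untreated and 0.0048 treated. Nop58 had 104, 118, 104 and 109 CPM in untreated progenitors and 89.9, 103, 100.5 and 89.3 CPM in untreated HFSCs. Every HFSC library was lower here too, but it was called in treated cells only (edgeR adjusted p = 0.0827 untreated and 0.039 treated, log2 fold changes -0.18 ± 0.076 and -0.22 ± 0.076), and it was not called in treated cells in 12 of 20 runs without 1 library or 1 mouse.

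Of the box H/ACA proteins, 2 of 4 were called lower in each condition, against 16.1% and 16.8% of all tested genes. Nhp2, a core RNA-binding protein of the particle, fell from 225 ± 3.62 to 177 ± 8.48 CPM in untreated cells (log2 fold change -0.34 ± 0.037, edgeR adjusted p = 9.66e-06) and from 241 ± 3.71 to 188 ± 8.06 CPM in treated cells. Nop10, the smallest core protein, was lower by less, at 158 ± 3.24 against 148 ± 3.70 CPM, and its adjusted p of 0.0498 (edgeR) sat just inside the threshold in untreated cells. It was not called there in 15 of 20 runs without 1 library or 1 mouse, nor under 4 of 8 other settings, and with library totals its sign turned. Dkc1, the pseudouridine synthase dyskerin, had 49.5, 50.9, 44.3 and 49.05 CPM in untreated CD34- and 39.4, 44.1, 44.2 and 39.1 CPM in untreated CD34+ libraries. All HFSC libraries lay below the progenitor libraries, while the test was not passed (log2 fold change -0.22 ± 0.089, edgeR adjusted p = 0.0833). Mpp1, on the strand opposite Dkc1, had 100.8% as many UMIs (Pearson r 0.833 over 16 libraries). It was not called in untreated cells and was higher in treated HFSCs (log2 fold change 0.17, edgeR adjusted p = 0.019). Gar1, which stimulates the synthase, read 40.5 ± 1.49 and 37.1 ± 3.99 CPM and was not called.

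The snoRNA genes within Ncl, Gnl3, Nop56, Nop58 and Dkc1 can be set beside their hosts. Of 15 tested, 14 lay below 0 in untreated and 15 in treated cells, against 47.2% and 50.8% of all tested genes. Their median log2 fold changes were -0.31 and -0.29. In each condition 1 of the 15 was called lower, while 16.1% and 16.8% of all tested genes were. Gm23650 in Nop56 read -0.43 ± 0.15 on the log2 scale in untreated cells (edgeR adjusted p = 0.0389). Snord57, also in Nop56, had -0.54 ± 0.15 in treated cells (edgeR adjusted p = 0.0108). Counts were low, with 86 to 2919 UMIs per snoRNA over all 16 libraries, and tags from the snoRNA, from its host precursor and from host mRNA cannot be told apart.

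Of the 12 genes for 40S maturation, 6 were called lower in untreated and 7 in treated HFSCs, against 16.1% and 16.8% of all tested genes. All 12 lay below 0 in untreated cells, as did 47.2% of all tested genes. Rrp9, a component of the U3 snoRNA particle, had 16.2, 17.2, 16.03 and 16.8 CPM in untreated CD34- and 12.5, 14.5, 13.1 and 12.3 CPM in untreated CD34+ libraries. In treated cells the libraries read 18, 18.9, 17.4 and 18.8 CPM and 13.8, 14.2, 12.8 and 11.2 CPM. The groups were apart in both conditions, with log2 fold changes of -0.34 ± 0.071 and -0.49 ± 0.071 (edgeR adjusted p = 0.00221 and 0.000111).

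Rrp12, which helps export pre-40S particles, was measured at lower counts. It had 6.80, 5.81, 6.67 and 7.81 CPM in untreated CD34- and 5.35, 4.66, 5.86 and 5.14 CPM in untreated CD34+ libraries, the ranges overlapping through mouse 2 of the progenitors and mouse 3 of the HFSCs. The untreated log2 fold change was -0.37 ± 0.12 (edgeR adjusted p = 0.035), not called with mouse as a block nor in 10 of 20 runs without 1 library or 1 mouse, and in treated cells it was -0.49 ± 0.12 (edgeR adjusted p = 0.00724). Tsr1, a GTPase-like factor of late pre-40S particles, fell from 17.5 ± 0.558 to 14.1 ± 1.06 CPM in untreated cells (log2 fold change -0.32 ± 0.074, edgeR adjusted p = 0.00454), but its counts ran with those of the opposite-strand neighbour Srr (Pearson r 0.992 over 16 libraries), with which it shares its 3′ end. Pno1, which holds the pre-40S rRNA end, fell from 41.5 ± 2.84 to 34.5 ± 2.79 CPM in untreated cells (log2 fold change -0.27 ± 0.069, edgeR adjusted p = 0.00864), and its counts ran with those of the opposite-strand gene Wdr92 (Pearson r 0.988 over 16 libraries).

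Imp4 and Heatr1 were called lower in untreated cells by log2 fold changes of -0.18 and -0.13, and Imp4, Nop14 and Ltv1 in treated cells by -0.22, -0.33 and -0.25. The untreated call of Heatr1 and the treated call of Nop14 were each absent in 7 of 20 runs without 1 library or 1 mouse. Each was also absent under 3 of 8 other settings. The untreated call of Imp4 was absent in 5 of 20 such runs. Imp3, Noc4l, Bysl and Nob1 passed in neither condition, with values from -0.21 (Noc4l, treated) to 0.051 (Bysl, treated). Nop14 overlaps the antisense gene Gm15522, which had 22.3% as many UMIs (Pearson r 0.9 over 16 libraries). Heatr1 overlaps the opposite-strand pseudogene Gm5928, which had 55.1% as many UMIs (Pearson r 0.97 over 16 libraries). In untreated cells the log2 fold change of Gm5928 was -0.32 (edgeR adjusted p = 0.000501). Lgals8, which also overlaps Heatr1, went the other way, at 0.22 (edgeR adjusted p = 0.046). Bysl overlaps Ccnd3, which had 224% as many UMIs, and 361 bases at the 3′ end of Bysl are 100% identical to Ccnd3. The log2 fold change of Ccnd3 was -0.52 (edgeR adjusted p = 3.2e-05) in untreated cells. The strand used in counting is not given in the sources used here.

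Of the 12 genes for 60S maturation, 8 were called lower in untreated and 10 in treated HFSCs, against 16.1% and 16.8% of all tested genes. All 12 lay below 0 in both conditions, as did 47.2% and 50.8% of all tested genes. Wdr12 binds Pes1 and Bop1 in the complex that processes the rRNA of the large subunit. It had 253, 257, 294 and 294 CPM in untreated CD34- and 154, 166, 169 and 144 CPM in untreated CD34+ libraries. In treated cells it had 292, 306, 305 and 330.4 CPM in CD34- and 182, 177, 208 and 165 CPM in CD34+ libraries.

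All HFSC libraries of Wdr12 thus lay far below every progenitor library, with log2 fold changes of -0.79 ± 0.076 untreated and -0.75 ± 0.076 treated (edgeR adjusted p = 3.61e-06 and 5.04e-06), the largest decrease among the 40 members in each condition. The opposite-strand neighbour Carf, with 81.7% as many UMIs, had log2 fold changes of -0.13 (edgeR adjusted p = 0.029) and -0.11 (edgeR adjusted p = 0.059). The partners of Wdr12 had smaller values. Bop1 stood at 24.3, 28.5, 27.3 and 26.9 CPM in untreated CD34- and 22.3, 22.7, 23.3 and 23.2 CPM in untreated CD34+ libraries, apart from each other (log2 fold change -0.23 ± 0.049, edgeR adjusted p = 0.00273), and its treated value was -0.35 ± 0.049 (edgeR adjusted p = 9.49e-05). Mroh1, on the strand opposite Bop1, had 35.6% as many UMIs (Pearson r 0.915 over 16 libraries). The log2 fold changes of Mroh1 were -0.21 untreated and -0.34 treated (edgeR adjusted p = 0.142 and 0.021). Pes1 had 47.02, 48.5, 47.1 and 49.5 CPM in untreated CD34- and 41.9, 46.1, 43.2 and 43.4 CPM in untreated CD34+ libraries. Its adjusted p was 0.0536 untreated and 0.0257 treated (edgeR), at log2 fold changes of -0.14 ± 0.051 and -0.16 ± 0.051. The treated call of Pes1 was absent in 9 of 20 runs without 1 library or 1 mouse.

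Nip7, a factor of pre-60S particles, had 284, 272, 299 and 291 CPM in untreated CD34- and 224, 229, 226 and 191 CPM in untreated CD34+ libraries. The groups did not overlap (log2 fold change -0.40 ± 0.052, edgeR adjusted p = 6.25e-05), and treated cells gave -0.40 ± 0.052. Mrto4, which holds the place of the ribosomal stalk protein P0 on pre-60S particles, had 36.2, 37.4, 37.9 and 34.3 CPM in untreated CD34- and 23.96, 27.4, 29.4 and 24.5 CPM in untreated CD34+ libraries. Its log2 fold change was -0.47 ± 0.082 (edgeR adjusted p = 0.000626) and no library of one group reached the other. Nop2, an rRNA methyltransferase known as a proliferation antigen, had 8.56, 9.01, 7.19 and 7.40 CPM in untreated CD34- and 6.43, 7.57, 6.72 and 5.55 CPM in untreated CD34+ libraries, with overlap through mouse 2 of the HFSCs (log2 fold change -0.29 ± 0.10, edgeR adjusted p = 0.0431). That call was absent in 13 of 20 runs without 1 library or 1 mouse and under 5 of 8 other settings. After treatment Nop2 had 9.91, 10.6, 8.18 and 9.11 CPM in CD34- against 6.98, 7.23, 6.87 and 6.87 CPM in CD34+ libraries, without overlap (-0.44 ± 0.10, edgeR adjusted p = 0.00415).

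Nop16, Ebna1bp2 and Noc2l were called lower in both conditions and Rrs1 in treated cells, while Rrp1 and Noc3l passed in neither. The call of Rrs1 was absent in 10 of 20 runs without 1 library or 1 mouse and under 3 of 8 other settings. The untreated call of Ebna1bp2 was absent in 7 of 20 such runs. Noc2l and Samd11, on the opposite strand, had almost the same counts (Pearson r 0.9999 over 16 libraries), so the tags of this pair cannot be given to either gene. Noc2l also has a stretch of 164 bases that is 95.1% identical to Srpk1, which had 158987 UMIs. Just outside the threshold in untreated cells lay Imp3 (edgeR adjusted p = 0.0504), Pes1 (0.0536) and Nolc1 (0.0555).

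**Figure D2:**
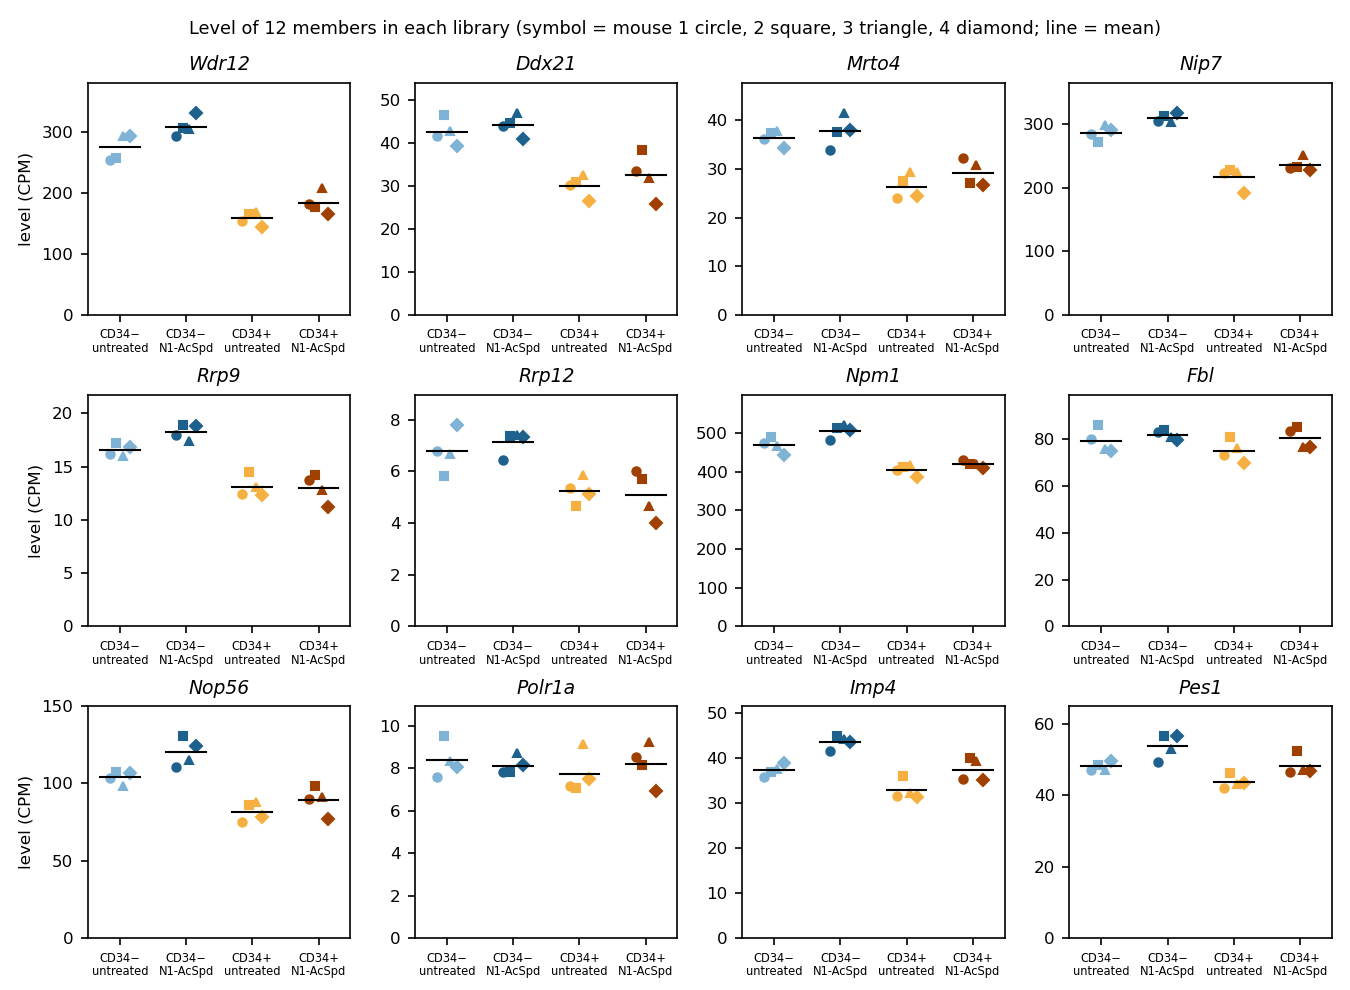
Level (CPM) of 12 members in each of the 16 libraries, by group, with 1 symbol per mouse and a line at the group mean, on axes that start at 0. Wdr12, Ddx21, Mrto4, Nip7, Rrp9, Npm1 and Nop56 show both CD34+ groups below the CD34- group of the same treatment, Fbl and Polr1a show overlapping groups, and Imp4 and Pes1 are higher with N1-AcSpd in both fractions.

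The members' summed level gives 1 number per library, in which abundant members weigh most. Npm1, Ncl, Nip7 and Wdr12 averaged 450, 266, 262.5 and 231 CPM over the 16 libraries. The summed level was 3118 ± 57.8 CPM in untreated CD34- and 2611 ± 139 CPM in untreated CD34+ cells. With N1-AcSpd it was 3345 ± 81.9 and 2747 ± 142 CPM (mean ± SD, n = 4). The highest CD34+ library, at 2842 CPM, lay below the lowest CD34- library, at 3073 CPM.

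**Figure D3:**
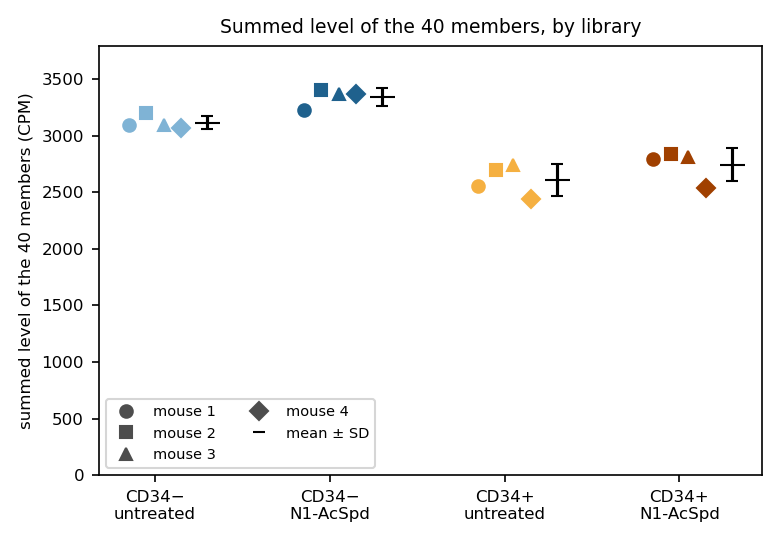
Summed level (CPM) of the 40 members in each library, by group, with 1 symbol per mouse and the mean ± SD at the right of each group. Both CD34+ groups (2442 to 2842 CPM) lie below both CD34- groups (3073 to 3410 CPM), and the N1-AcSpd mean is above the untreated mean in each fraction.

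The second question was what N1-AcSpd does to these genes in each cell type, with the same libraries as the cell type comparisons. In CD34- progenitors 0 members were called by edgeR, where 0.614% of tested genes were called in either direction, and 34 of 40 lay above 0 with a median log2 fold change of 0.11 (all tested genes 0.0001). At an unadjusted p under 0.05, 16 members were higher and 0 lower, against 7.23% higher over all tested genes, and in 9 members every treated library lay above every untreated one, against 4.91%. DESeq2 called 6 members and edgeR with mouse as a block called 2. Leaving out the N1-AcSpd CD34- library of mouse 1 gave 1 call.

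In CD34+ HFSCs 0 members were called by edgeR (0.325% of tested genes), 33 of 40 lay above 0 and the median was 0.089 (all tested genes -0.014). Here 10 members were higher and 0 lower at an unadjusted p under 0.05, against 6.78% higher over all tested genes, and 4 had groups apart with treated libraries higher, against 3.38%. DESeq2 called 2. The 2 fractions share no library, but both were sorted from organoid cultures of the same 4 mice and are not independent. Of the members, 30 were above 0 in both, 3 below 0 in both, 4 higher in progenitors alone and 3 in HFSCs alone. For the 19049 tested genes, 31.0% were above 0 in both.

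Averaged over the fractions, 3 of 40 members (Imp4, Pes1 and Noc2l) were called higher with N1-AcSpd and 0 lower, the tags of Noc2l being shared with Samd11, against 2.7% of tested genes called higher, 2.17% called lower and 5.11% called higher among genes at or above the lowest member's count. At an unadjusted p under 0.05, 20 members were higher and 0 lower (10.6% of tested genes higher), 35 lay above 0 and the median was 0.097 (all tested genes -0.0077), above 0 in each of the 4 mice (SD over mice 0.016). With mouse as a block edgeR called 8 members, and DESeq2 called 13. The shares of tested genes above are from the main edgeR fit and are no background for these counts. Without the block, 0 members were called when mouse 1 or mouse 3 was left out and 1 when mouse 2 or mouse 4 was. Leaving out 1 library gave 7 calls (N1-AcSpd CD34- of mouse 1), 5 (untreated CD34+ of mouse 2) and 8 (N1-AcSpd CD34+ of mouse 4).

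Cell type markers moved in the same libraries. Of the 9 HFSC markers tested, 7 lay below 0 over both fractions and 3 were called lower with N1-AcSpd, their sum going from 456.5 ± 7.14 to 400.5 ± 21.9 CPM in CD34- and from 996.8 ± 82.6 to 871 ± 104 CPM in CD34+ cells. All 7 differentiation markers lay above 0 and 2 were called higher, and of 7 cell cycle genes 5 lay above 0 with 0 called (edgeR). By fraction the cell cycle genes differed, with 5 of 7 below 0 in CD34- and all 7 above 0 in CD34+ cells. In CD34+ cells 4 were higher at an unadjusted p under 0.05 (edgeR), and 0 were called in either fraction. The part of all these markers in the values of the ribosome genes was not tested.

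Imp4 is a U3 particle protein needed for the early cuts in the precursor. It rose from 35.8, 36.8, 37.4 and 38.7 CPM to 41.5, 44.8, 44.2 and 43.5 CPM in CD34- libraries, without overlap. In CD34+ libraries it went from 31.6, 35.99, 32.2 and 31.3 CPM to 35.3, 39.9, 39.2 and 35.1 CPM, with the second untreated mouse inside the treated range. The averaged log2 fold change was 0.21 ± 0.038 (edgeR adjusted p = 0.00991), from 0.23 ± 0.054 in progenitors (adjusted p = 0.079) and 0.19 ± 0.054 in HFSCs (adjusted p = 0.169). The antisense gene Gm28306, with 39.7% as many UMIs and counts that ran with Imp4 (Pearson r 0.986 over 16 libraries), was also called higher over both fractions, by 0.23 (edgeR adjusted p = 0.019).

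Pes1 went from 47.02, 48.5, 47.1 and 49.5 CPM to 49.4, 56.4, 52.9 and 56.5 CPM in CD34- libraries, where mouse 1 of the treated group lay inside the untreated range. In CD34+ libraries it went from 41.9, 46.1, 43.2 and 43.4 CPM to 46.6, 52.4, 46.95 and 46.7 CPM, without overlap. The averaged log2 fold change was 0.15 ± 0.036 (edgeR adjusted p = 0.0294) and all 4 mice had that sign, but it was not called in 9 of 20 runs without 1 library or 1 mouse, nor without a low-count filter.

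Noc2l, a 60S export factor that also inhibits histone acetylation, went from 148, 154, 151 and 151 CPM to 158, 160.5, 163 and 169 CPM in CD34- libraries. In CD34+ libraries it went from 135, 142, 139 and 135 CPM to 151, 148, 153 and 145 CPM. Treated libraries lay above untreated ones in both fractions for these shared tags, with an averaged log2 fold change of 0.11 ± 0.021 (edgeR adjusted p = 0.00991), and the value for Samd11 was 0.12 (edgeR adjusted p = 0.0092).

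Other members fell short of the threshold over both fractions. Pno1 (0.18 ± 0.048, edgeR adjusted p = 0.0518), Wdr12 (0.19 ± 0.054, 0.0591), Nhp2 (0.09 ± 0.026, 0.062) and Ebna1bp2 (0.12 ± 0.035, 0.062) came nearest. In RNA polymerase I the largest subunit had 0.022 ± 0.071 (edgeR adjusted p = 0.93) and Ubtf -0.07 ± 0.04 (edgeR adjusted p = 0.352). Ubtf went from 22.2, 22.6, 20.1 and 21.6 CPM to 20.8, 21.1, 21.7 and 18.1 CPM in CD34- libraries, the smallest p among the 6 members below 0 there (unadjusted p = 0.164 in edgeR). Ltv1, an export factor of pre-40S particles, had the smallest p of the 7 below 0 in CD34+ libraries, from 17.98, 18.4, 21.6 and 19.1 CPM to 18.2, 18.6, 18.7 and 16.03 CPM (unadjusted p = 0.141 in edgeR). Both pairs of groups overlapped.

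**Figure D4:**
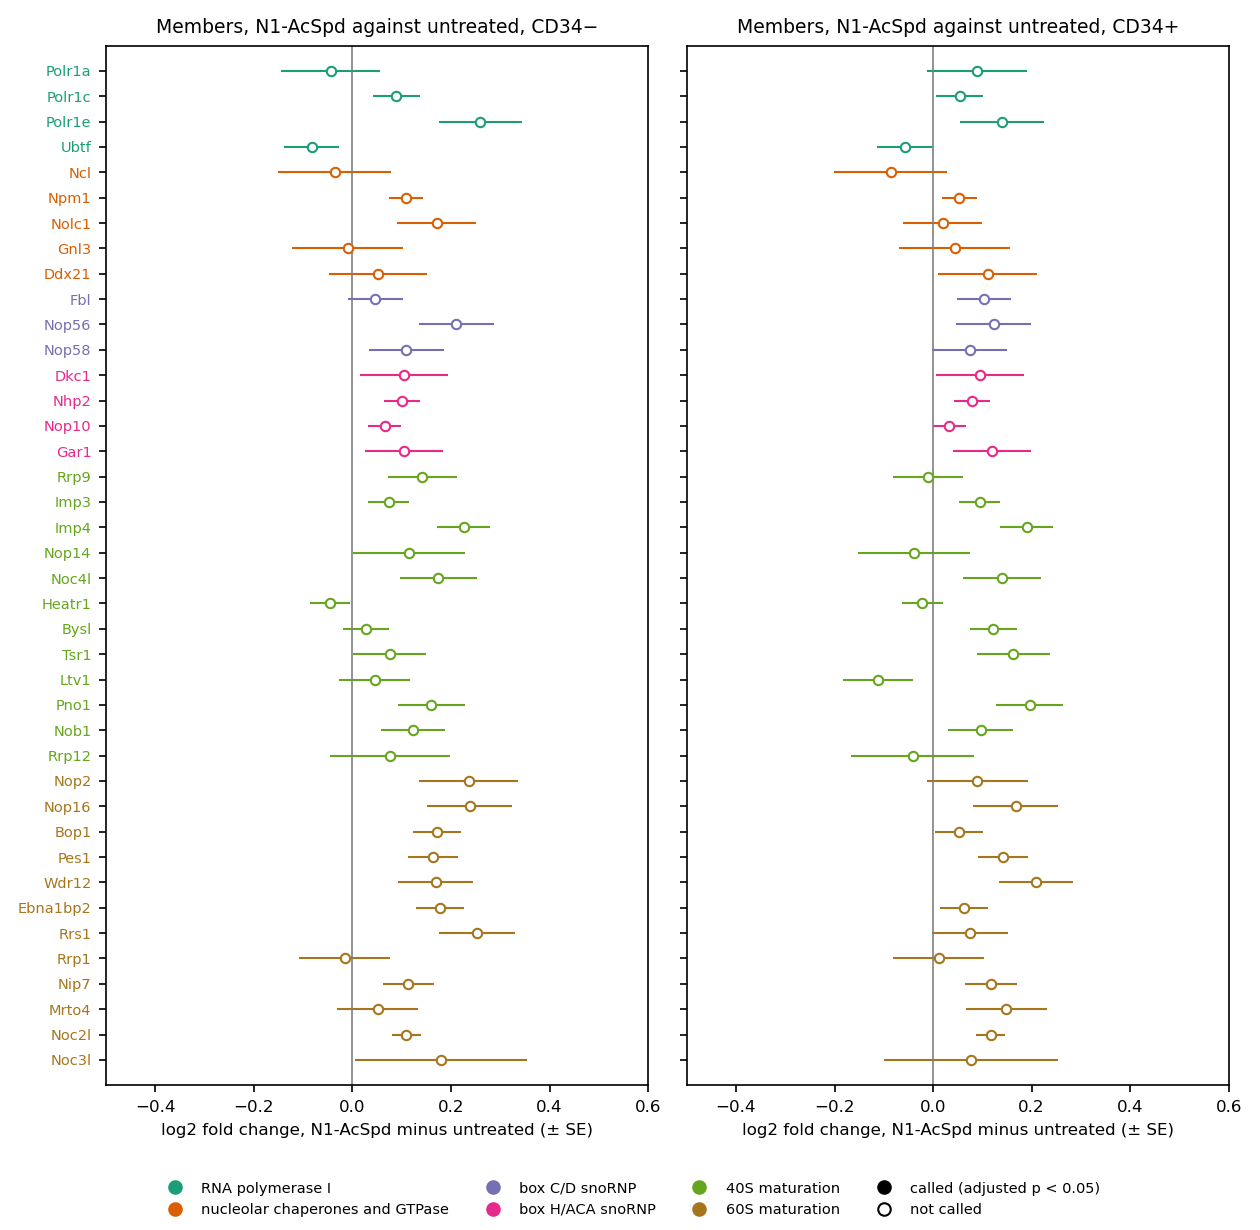
Log2 fold change (± SE) of each member between N1-AcSpd and untreated cells, CD34- on the left and CD34+ on the right, ordered and coloured by role. No point is filled, as no member was called within a fraction, and 34 of 40 points in CD34- and 33 of 40 in CD34+ cells lie above 0.

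The difference between the treatment effects of the fractions had a median of -0.030 over the members, with 16 above and 24 below 0 and a range from -0.18 to 0.13. Bop1 had the smallest p below 0 and Bysl, which acts at the end of pre-40S assembly, the smallest above it. Bysl shares its 3′ end with Ccnd3, and how such tags were assigned is not given in the sources used here. Bop1 went from 26.7 to 30.1 CPM in CD34- and from 22.8 to 23.7 CPM in CD34+ cells, an interaction of -0.12 ± 0.069 (unadjusted p = 0.107 in edgeR). Bysl went from 34.5, 34.4, 33.1 and 35.96 CPM to 34.7, 35.9, 34.1 and 35.9 CPM in CD34- and from 33.1, 35.9, 32.3 and 32.4 CPM to 33.2, 38.1, 36.9 and 37.2 CPM in CD34+ libraries, an interaction of 0.095 ± 0.067 (unadjusted p = 0.179 in edgeR).

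A longer list of 136 other ribosome biogenesis genes, all tested, covers further polymerase, snoRNA particle, subunit and exosome factors. Of these, 32 were called lower and 4 higher in untreated HFSCs (median log2 fold change -0.11). The share called lower lay between that of all tested genes (16.1%) and that of tested genes at or above the lowest member's count (25.2%). In treated HFSCs 48 were called lower and 8 higher (median -0.16), where these backgrounds were 16.8% and 25.5% lower. By role, 16 of 51 genes for 60S maturation were called lower in untreated cells. Of the 12 further RNA polymerase I genes, 5 were called lower and 1 higher in untreated cells (median -0.20). In treated cells 5 of these were called lower and 2 higher. Of the 9 genes for snoRNA particle assembly, 0 were called in untreated cells. The 7 of 41 for 40S maturation and the 4 of 23 for the RNA exosome and RNase MRP were close to the 16.1% of all tested genes, and the exosome and RNase MRP genes had a median of 0.038. After N1-AcSpd, 18 were called higher and 2 lower over both fractions (median 0.077), against 2.7% and 2.17% of all tested genes, with 5 of the 18 among the exosome and RNase MRP genes.

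Among the genes named from this list, Ttf1, which ends RNA polymerase I transcription, had levels of 768 ± 59.7 CPM in untreated CD34- and 448 ± 41.1 CPM in untreated CD34+ cells (log2 fold change -0.78 ± 0.076, edgeR adjusted p = 3.95e-06), and Taf1d, a subunit of the SL1 promoter factor, 340.2 ± 25.6 and 209 ± 19.3 CPM (-0.70 ± 0.070, edgeR adjusted p = 5.05e-06). The 60S GTPase gene Gtpbp4 changed by -0.71 ± 0.063 in treated cells (edgeR adjusted p = 1.85e-06). Znrd1, a small subunit of RNA polymerase I, went the other way, with 13.5 ± 0.718 and 18.2 ± 0.839 CPM in untreated cells (log2 fold change 0.43 ± 0.066, edgeR adjusted p = 0.000207). After N1-AcSpd, Utp4 of the small subunit processome rose by 0.37 ± 0.071 over both fractions (edgeR adjusted p = 0.0135), and Gnl3l, a relative of nucleostemin, fell by 0.23 (edgeR adjusted p = 0.0468).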

How the data were processed

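Sorted cells were profiled by 3′ RNA-seq with UMIs. The authors separated reads by barcode with FLEXBAR, aligned them to mm10 with Kallisto (0.45.0 in the submitters' processing notes), assigned tags with BEDTools and deposited raw UMI counts per gene. Empty cells were read as 0. The annotation release and counting strand are not given in the sources used here.

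Groups came from the labels, with WT read as untreated. The test was edgeR 4.0.16 (R 4.3.3) on genes averaging 5 or more UMIs, with TMM scaling, quasi-likelihood tests and 1 mean per group over 16 libraries. P-values are two-sided. On simulated data (progenitor treatment comparison, 18776 genes, 4 false calls) 92% of genes changed by 1 and 76% of those changed by 0.5 (log2) were recovered. The changed genes were drawn from those with higher counts. In that comparison the members' log2 fold changes ran from -0.083 to 0.26, and recovery of changes that small was not simulated. The 40 members, the lists and the tests were chosen with earlier results of these data known, and the background of genes at or above the lowest member's count was added after the values were seen. Of 137 other genes listed, 136 were found.

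Named with full values were, per comparison, up to 5 called members with the largest increase and 5 with the largest decrease, or the smallest p in each direction, and 12 members of central roles. Genes of the longer list were named by size of change, if called and averaging 50 or more UMIs. The replicate number is the mouse in all groups, so it pairs the samples. Deviations of same-mouse libraries had a mean correlation of 0.013 (-0.069 to 0.086, 24 pairs). Alternatives were other scalings and filters, mouse as a block, DESeq2 1.42.0, only the compared libraries, thinning to 15480075 UMIs and leaving out each library or mouse.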

Additional observations from a re-analysis of the deposited data

Results flagged for a closer look

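Within groups of 4 libraries, 92 sets of values (the members given per library and the members' summed level) were searched for a library far from the other 3, and 6 were found, while chance alone marks about 1 in 20 groups. Gnl3 in mouse 4 was low in both N1-AcSpd groups, at 49.0 CPM in CD34- cells (the others from 54.6 to 55.3 CPM) and at 32.4 CPM in CD34+ cells (the others from 46.7 to 48.8 CPM). The summed level of the members was 2536 CPM in the N1-AcSpd CD34+ library of mouse 4, against 2798 to 2842 CPM in the others. Nip7 was 191 CPM in the untreated CD34+ library of mouse 4, against 224 to 229 CPM. Pes1 was high in the N1-AcSpd CD34+ library of mouse 2, at 52.4 CPM against 46.6 to 47.0 CPM. Rrp12 was low in the N1-AcSpd CD34- library of mouse 1, at 6.44 CPM against 7.34 to 7.42 CPM.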

How the results depend on the processing

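The members' median in CD34+ against CD34- cells stayed below 0 under all settings run, and its size depended on the scaling. With library totals 10 members were called in untreated cells (9 lower, 1 higher) and 14 lower and 3 higher in N1-AcSpd cells. The untreated median was then -0.068 on the log2 scale, while the members' median minus that of all genes was -0.21, against -0.20 with TMM. Under that scaling Nop10 turned to 0.023 in untreated cells, far from called. Leaving out 1 library or 1 mouse gave 13 to 22 calls and medians of -0.24 to -0.14 in untreated cells, and 14 to 26 calls in N1-AcSpd cells.

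The treatment counts moved more. With mouse as a block, which uses the pairing by animal, 2 members were called in CD34- cells and 8 over both fractions, and Rrp12 lost its call in untreated cells. No other call of a named member was lost under the block. DESeq2 called 6 members in CD34- cells, 2 in CD34+ cells and 13 over both fractions. Over both fractions, library totals gave 8 calls, thinning gave 6, and leaving out libraries or mice gave 0 to 8 calls with medians of 0.083 to 0.12. In CD34- cells the leave-out runs gave 0 to 1 calls. The causes of these shifts were not tested. The share of all tested genes called under each of these settings is not given, so these counts have no background beside them. For the mean over both fractions and for the interaction, fitting only the compared libraries gives no separate value, since all 16 are compared. Depth limits the members with few UMIs, such as Noc3l, whose log2 fold change in untreated cells was -0.13 ± 0.18 (SE).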
